A study of Mus musculus with 9 samples.

Results

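Open chromatin of brain endothelial cells was compared between old and young mice that had lost Klf4 in the endothelium (EC-K4KO), in 2 old and 3 young libraries out of the 9 of the study. These mice carry floxed Klf4 alleles and a Cre driven by VE-cadherin (Cdh5), and tamoxifen started the deletion. The other 4 libraries, 2 old and 2 young, came from WT Cre mice, which carry the Cdh5 Cre without the floxed alleles and were also given tamoxifen. The line is on the C57BL/6J background, both sexes were used and the sex behind a library is not given. The labels give age only as old or young. By the study's methods tamoxifen was given to young adults, so a longer time without Klf4 and a higher age cannot be told apart where old mice were injected at that age, and the time from injection to harvest is not given for each of these libraries. The names of all young libraries share one prefix and those of all old libraries another, so a difference between processing rounds, if the prefix marks one, cannot be told apart from age.

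Klf4 is a zinc-finger transcription factor of the Krüppel-like family that laminar flow induces in endothelium together with Klf2, and it is known for restraining inflammatory and thrombotic genes in vessels. Brain endothelial cells form the blood-brain barrier, whose tight junctions and transporters depend on Wnt and beta-catenin signalling and on ETS, SOX and FOX factors. In Omni-ATAC-seq, the Tn5 transposase cuts and tags DNA that is free of nucleosomes, so that promoters and active enhancers appear as peaks. An AP-1 site is bound by FOS and JUN proteins, which cells make quickly after many stimuli.

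The deposited lists held 161254 peaks in the 5 EC-K4KO libraries, of 253457 in the whole series. Each peak was given by MACS2 with a fold over background and a −log10 p, and by the authors' annotation with a class (promoter-TSS, intron, exon, intergenic or the transcription termination site, TTS) and the gene with the nearest transcription start site (TSS). Because list lengths differed, the lists were compared as deposited and at equal length, keeping the 23848 peaks with the highest −log10 p in each library, the length of the shortest list. Overlapping peaks were joined into regions. A region was called old-side if both old libraries held a peak in it and no young library did, and young-side if at least 2 young libraries held a peak and no old library did. For regions held by all 5 libraries, the rank of the peak within its list (1 is the strongest) was compared, and a region was called higher or lower in old only if both old ranks lay beyond all 3 young ranks. Sides and ranks are thus defined by the values themselves and are described without a test.

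The sequences of 5 regions named below are shown as examples of side regions with motif matches. Each run is 300 bases of the mouse genome GRCm38 (mm10), written 5′ to 3′ around the centre of the region, and capitals mark a match to a searched motif on either strand. The first set is old-side, with the ETS letters ACAGGAAG near Tpst1 and in Kank4 and the PU.1 letters GAGGAAGT, which share bases with the ETS letters, near Tpst1. The Tpst1 region is intergenic and the Kank4 region lies in intron 1.
Tpst1, chr5:130062114-130062413, plus strand: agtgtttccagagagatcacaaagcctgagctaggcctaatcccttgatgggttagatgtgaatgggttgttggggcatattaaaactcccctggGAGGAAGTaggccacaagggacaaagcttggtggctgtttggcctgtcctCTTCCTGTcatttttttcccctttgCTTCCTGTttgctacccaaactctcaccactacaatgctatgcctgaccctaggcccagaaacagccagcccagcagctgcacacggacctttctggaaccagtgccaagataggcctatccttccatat
Kank4, chr4:98806377-98806676, plus strand: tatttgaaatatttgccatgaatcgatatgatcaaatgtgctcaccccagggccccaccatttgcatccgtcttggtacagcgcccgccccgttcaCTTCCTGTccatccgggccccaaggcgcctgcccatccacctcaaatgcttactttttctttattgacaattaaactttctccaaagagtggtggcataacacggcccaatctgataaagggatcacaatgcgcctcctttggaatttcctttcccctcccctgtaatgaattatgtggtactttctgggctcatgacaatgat
The second set is young-side and was picked for AP-1 matches, which are no more frequent than usual among the young-side regions absent from the whole old lists, to which these belong. Each holds the AP-1 letters TGANTCA, and the Wwtr1 region also holds the NF-kB letters GGGANTTCC and the Rhoc region the E-box letters CACGTG. The Wwtr1 region lies in intron 2 of its gene and those of Lamc1 and Rhoc in intron 1.
Wwtr1, chr3:57501780-57502079, plus strand: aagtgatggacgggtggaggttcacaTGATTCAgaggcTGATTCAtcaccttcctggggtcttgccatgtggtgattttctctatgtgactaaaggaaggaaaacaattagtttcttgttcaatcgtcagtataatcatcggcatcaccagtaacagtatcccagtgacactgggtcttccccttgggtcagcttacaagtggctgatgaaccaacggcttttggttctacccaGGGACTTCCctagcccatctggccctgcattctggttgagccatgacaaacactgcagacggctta
Lamc1, chr1:153300426-153300725, plus strand: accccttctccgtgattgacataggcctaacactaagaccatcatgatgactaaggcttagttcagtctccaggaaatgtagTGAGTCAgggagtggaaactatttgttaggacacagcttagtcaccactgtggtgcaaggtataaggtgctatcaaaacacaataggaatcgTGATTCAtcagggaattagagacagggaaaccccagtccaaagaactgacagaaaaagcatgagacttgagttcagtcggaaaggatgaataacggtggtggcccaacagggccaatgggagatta
Rhoc, chr3:104790809-104791108, plus strand: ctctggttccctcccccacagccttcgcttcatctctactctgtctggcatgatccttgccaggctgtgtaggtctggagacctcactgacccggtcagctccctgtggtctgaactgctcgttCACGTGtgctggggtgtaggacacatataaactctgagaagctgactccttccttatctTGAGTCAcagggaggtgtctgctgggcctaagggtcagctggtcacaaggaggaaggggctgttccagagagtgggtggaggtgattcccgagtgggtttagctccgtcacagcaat

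The lists were first checked against their labels. A peak lay at the Klf4 promoter in each of the 9 libraries. Its rank in EC-K4KO was 3387 and 3502 in the old libraries and 911, 1155 and 1414 in the young. No other peak lay within the Klf4 gene (chr4:55527143-55532466) in the EC-K4KO libraries, so these lists do not check the deletion. Of 25 endothelial marker genes, 19 and 19 had a promoter-TSS peak in the old libraries and 14, 18 and 16 in the young. Microglial genes, among 15 searched, and neutrophil and T cell genes, among 12, had no promoter-TSS peak in any EC-K4KO library. Of 15 pericyte and smooth muscle genes, 6 and 3 had one in the old libraries and 0 in each young library, with Tagln and Myh11 in both old libraries, while Rgs5, Notch3 and Abcc9 had none in any. Of 15 neuronal genes the counts were 5 and 4 in old and 2, 2 and 1 in young, and of 15 astrocyte genes 4 and 3 in old and 1, 1 and 2 in young, with Aqp4, Gfap and Snap25 at 0 in all. Of 15 oligodendrocyte genes the counts were 3 and 2 in old and 2, 3 and 3 in young, and of 10 fibroblast genes 1 and 1 in old and 2, 2 and 1 in young. Over all genes, 8444 and 8263 had a promoter-TSS peak in the old and 6049, 7207 and 7299 in the young deposited lists. The part of these cell types in the differences below was not tested. Young replicate 1 stood apart from the other libraries by the Jaccard index of covered bases, into which peak width enters. At equal length this index was 0.293 to 0.336 with each of them, against 0.754 between the old libraries. Young replicate 3 had a slightly higher index with old replicate 1 (0.560) than with young replicate 2 (0.537). The index averaged 0.490 within ages and 0.452 between ages (one-sided exact permutation p = 0.3).

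More of the genome was called open in the old EC-K4KO libraries. They held 45026 and 39079 peaks, and the young libraries 23848, 25309 and 27992. Both old counts lay above all 3 young counts, at 1.64 times the young mean. The peaks covered 22.2 and 20.4 Mb in old and 11.04, 11.4 and 13.2 Mb in young. With 2 libraries against 3, the two-sided exact permutation test cannot give a p below 0.1, which it gave for the number of peaks (adjusted p = 0.20 over 12 measures), so no measure could pass 0.05. The number of reads behind each list is not given in the sources used here, so the depth is unknown and its part in these counts was not tested. At equal length, the weakest peak kept had a −log10 p of 8.84 and 8.0 in old and of 3.46, 3.57 and 3.53 in young, so that equal rank did not mean equal signal.

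The class of the peaks depended on how the lists were cut. Promoter-TSS peaks made up 19.1% and 21.5% of the deposited old lists and 25.6%, 28.8% and 26.5% of the young (exact permutation p = 0.1, adjusted p = 0.20). At equal length the order turned, with 31.6% and 31.7% in old and 25.6%, 30.4% and 30.8% in young (p = 0.3 by the exact permutation test, adjusted p = 0.30). At equal length, peaks more than 50 kb from a TSS made up 17.8% and 18.3% of the old lists and 29.0%, 24.0% and 20.8% of the young. Genes with a promoter-TSS peak numbered 7424 and 7467 in old and 6049, 7169 and 7249 in young at equal length. The promoter share of the 5000 strongest peaks was again lower in old, by 1.37 percentage points. At equal length young replicate 1 was the lowest of the 5 in promoter share and the highest in distal share, and without it the old libraries remained above the young in promoter share at equal length, by 0.99 percentage points. Peaks on chromosome X made up 2.35% and 2.37% of the old lists and 1.17%, 1.93% and 2.06% of the young lists at equal length. The deposited lists held 4 and 4 chromosome Y peaks in old and 1, 5 and 5 in young. Of these, 3 and 3 in old and 1, 2 and 3 in young were promoter-TSS peaks. The sex behind each library is not given, and a part of sex in the X share was not tested and cannot be told apart from age.

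**Figure D1:**
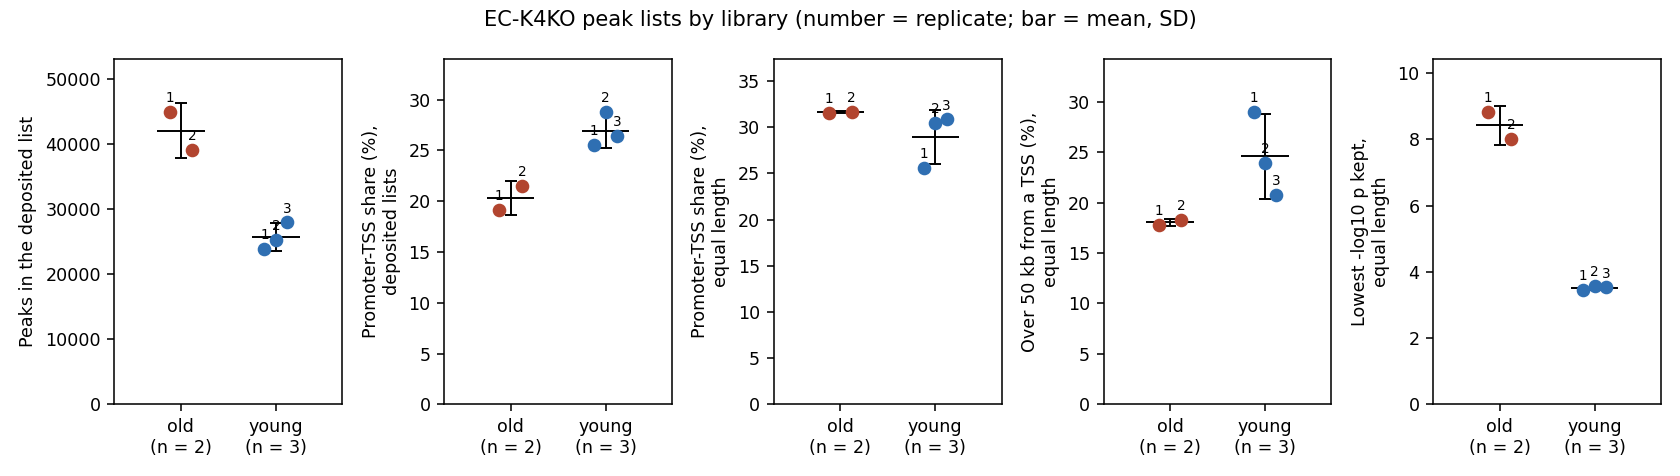
Measures of the 5 EC-K4KO peak lists, with 1 point for each library labelled by its replicate number, and a horizontal bar and whiskers for the mean and SD of each age (2 old in red, 3 young in blue). From left to right the vertical axes give the number of deposited peaks, the promoter-TSS share as deposited and at equal length (%), the share over 50 kb from a TSS (%) and the lowest −log10 p kept. The groups do not overlap in any panel, and the promoter share is lower in old as deposited and higher at equal length.

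Regions held by 1 age alone were mostly away from promoters. As deposited, 10569 of 73118 regions (14.5%) were old-side and 398 (0.544%) were young-side. At equal length, 2826 of 47326 regions (5.97%) were old-side and 1032 (2.18%) were young-side. Of the 47326 regions, 23076 were in 1 library only, 20411 of them in 1 young library. A region of 1 library can be on neither side, which lowers the side shares over all regions. All shares over all regions below include such regions. The young-side count rested on each young library, with 616, 329 and 397 regions at equal length and 83, 136 and 207 as deposited without young replicate 1, 2 or 3, when both remaining libraries had to hold the peak. Old-side regions numbered 21076 as deposited without old replicate 2, when a peak in 1 old library was enough, and 4547 at equal length without young replicate 3. Promoter-TSS regions made up 5.10% of old-side and 12.1% of young-side regions at equal length. They were 17.6% of all regions and 52.2% of the 11391 regions in all 5 libraries. Introns held 46.3% of old-side regions and intergenic sequence 43.2%, against 33.9% and 40.9% of all regions. Exons held 10.9% of young-side regions, against 3.64% of old-side and 6.37% of all regions. The distance to the nearest TSS had a median of 23840 bp in old-side, 17993 bp in young-side and 21372 bp in all regions.

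**Figure D2:**
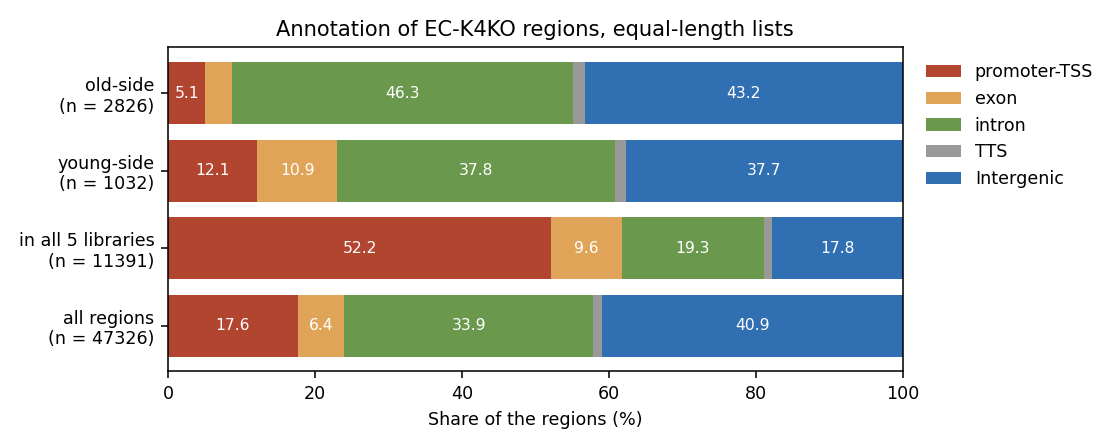
Share of regions (%, horizontal axis) in each annotation class at equal length, for old-side, young-side, common and all regions, with colours for promoter-TSS, exon, intron, TTS and intergenic. Promoters fill 52.2% of the regions found in all 5 libraries, 5.10% of old-side, 12.1% of young-side and 17.6% of all regions.

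The equal-length lists kept 53.0% and 61.0% of the old deposited lists and 100%, 94.2% and 85.2% of the young, so regions could reappear in the rest of the list far more easily on the old side than on the young, and the 2 sides cannot be compared in this. Of the 2826 old-side regions at equal length, 2722 were absent from the whole list of every young EC-K4KO library. Of the 1032 young-side regions, 276 were absent from both whole old lists, and 70.4% and 61.6% had a peak in the whole list of old replicates 1 and 2. So most young-side regions were held by old EC-K4KO cells too, at a lower rank. Old-side regions lay in the lower part of the equal-length old lists, with the median region 77.8% and 77.2% of the way down the 23848 peaks.

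The WT Cre libraries took no part in choosing these regions. Old-side regions had a peak in 82.2% and 72.1% of cases in the 2 old WT Cre lists, and in 0.283% and 0.955% in the young WT Cre lists. The young WT Cre lists are short, with 6157 and 9598 peaks, and over all regions the shares were 54.8% and 51.7% in old WT Cre and 11.9% and 17.3% in young WT Cre. Both old and neither of the young WT Cre lists held 63.7% of old-side regions, against 30.0% of all regions, and 10.4% of old-side regions were in no old WT Cre list. Young-side regions at equal length had a peak in 1.45% and 5.43% of cases in the young WT Cre lists, below the shares over all regions, and 35.7% were in no old WT Cre list, against 41.9% of all regions. In the deposited lists 81.2% of the 398 young-side regions were in no old WT Cre list, against 54.1% of all regions.

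**Figure D3:**
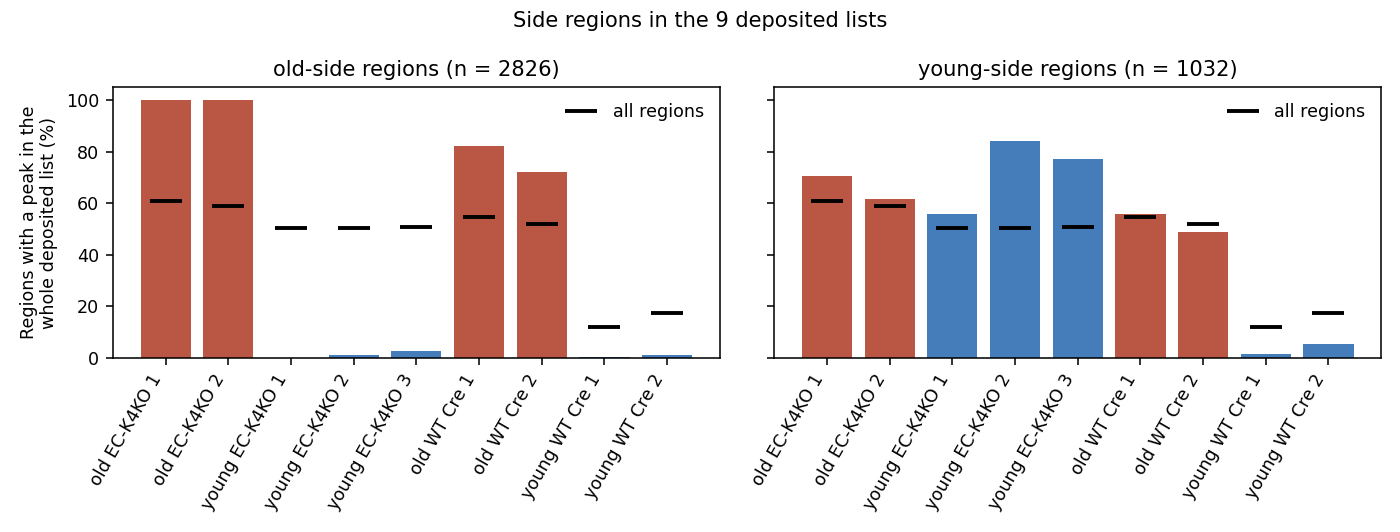
Share of old-side regions (left, 2826) and young-side regions (right, 1032) of the equal-length lists with a peak in each of the 9 whole deposited lists (%, vertical axis), with black lines for the share over all regions. Old libraries are red and young libraries blue. Old-side regions reach 82.2% and 72.1% in old WT Cre and stay under 1% in young WT Cre, and young-side regions reach 70.4% and 61.6% in the old EC-K4KO lists from which the equal-length rule had left them out.

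The strongest old-side regions lay near genes of varied function and were not among the top peaks of their lists. The 10 with the best mean rank had ranks of 6497 to 9588 and no peak in any whole young EC-K4KO list. In the WT Cre mice, all 10 were open in both old libraries and in neither young one. The first, intergenic and 41736 bp from the TSS of Bloc1s5, a subunit of the complex that builds lysosome-related organelles, was at chr13:38593132-38593614 with ranks 6915 and 6497. The Tpst1 region, 11031 bp upstream of a tyrosylprotein sulfotransferase gene, had ranks 8237 and 7826. The region in intron 1 of Kank4, which encodes a regulator of the actin cortex, had ranks 7977 and 8469. That 2184 bp upstream of Arl6ip5, a membrane protein of the endoplasmic reticulum, had ranks 8441 and 7059. The others lay in introns of Dyrk1a, a kinase gene of the chromosome region linked to Down syndrome, of Clip1, a microtubule plus-end protein gene, and of the matrix protein gene Abi3bp, at the TTS of Pigp nearest to Ttc3, and in intergenic sequence nearest to Slc27a6 and 6530402F18Rik.

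In the deposited lists some genes were nearest to many old-side regions. Foxp1, a forkhead repressor, was the nearest gene of 14 old-side regions out of 44 regions, the transcript 9430078K24Rik of 13 out of 39, Etv6, an ETS repressor, of 12 out of 28, and Zfpm1, the GATA cofactor FOG1, of 12 out of 20. B3gnt2, Irf2bp2, Lef1 and Rgs3 each had 11. Old-side regions were spread over 6240 nearest genes, of which 237 had 5 or more. The 398 young-side regions lay nearest to 376 genes and no gene had more than 3, a number reached by 5730507C01Rik, Cobl and Ctnna3.

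The strongest young-side regions lay near genes of varied function. The 10 with the best mean rank had ranks from 5085 to 23455. That over coding exon 3 of Ctcf, the insulator protein gene, at chr8:105663830-105665004 had ranks 8126, 9578 and 13557, and it was the only 1 of the 10 with a peak in both young WT Cre lists and in no old list of either genotype. The Wwtr1 region, in the gene of the mechanosensitive coactivator TAZ, had ranks 8495, 15718 and 15113. The region in intron 1 of Lamc1, a laminin chain of the basement membrane, had ranks 10766, 16200 and 16524. That in Rhoc, a small GTPase of the cytoskeleton, had ranks 19601, 17731 and 14870. The best mean rank fell to a region 283603 bp from AA545190, with ranks 7401, 5085 and 14299. AA545190, Wwtr1 and Rhoc regions each had a peak in 1 old WT Cre list. The others lay in an exon of the Wnt receptor gene Fzd8, in an intron of Mcc, 1199668 bp from 1700009N14Rik and at Mup15 and Mup16, which belong to a cluster of near-identical copies where read placement is uncertain.

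Among the 11391 regions common to all 5 libraries, 2369 ranked higher in old (20.8%) and 3418 ranked lower (30.0%). The shift, the mean log2 rank in young minus that in old, had a median of −0.09 over all common regions. A shift of at least 1 in either direction was reached by 611 of those higher and 763 of those lower in old. The class mix was alike for promoters, with 48.9% in each direction. Exons held 13.4% of the regions lower in old and 4.43% of those higher. Regions lower in old were wider, with a median of 936 bp against 682 bp, and the peaks of common regions were wider overall in the old libraries, at a median of 689 and 674 bp against 477, 558 and 599 bp.

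The largest shifts included promoters near the top of the lists. The promoter of Mxd4, a MAX partner that opposes MYC, ranked 3 and 2 in old and 130, 73 and 114 in young, a shift of 5.39. The shared promoter of Snhg10 and Glrx5 ranked 10 and 9 in old and 228, 191 and 167 in young. The promoter of Senp2, a SUMO protease, ranked 182 and 124 in old and 2543, 1492 and 1487 in young. An intron of the transporter gene Abcc6 and the promoter of Prkaca, the catalytic subunit of protein kinase A, also ranked higher in old, with shifts of 3.33 and 3.22.

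In the other direction the promoter of Msh3, a mismatch repair gene, ranked 243 and 372 in old and 6, 2 and 4 in young, a shift of −6.37. The promoter of Ing5, a reader of methylated histone H3, ranked 6408 and 6603 in old and 772, 143 and 121 in young. A region 42989 bp upstream of Chd7, a chromatin remodeller, ranked 1682 and 1781 in old and 225, 55 and 54 in young. Regions near Vps18 and Gm11437 completed the 5 with the largest fall. All 10 of these regions had non-overlapping groups by the rule that chose them.

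Genes were then followed by pathway, each region being given to the gene with the nearest TSS. Immediate early and AP-1 genes more often ranked lower in old than common regions as a whole. Of their 122 regions 53 were common to all 5 libraries, of which 32 ranked lower in old (60.4%, against 30.0% of all common regions) and 1 ranked higher (1.89%, against 20.8%). The median shift was −0.62. Among promoter-TSS regions 11 of 13 ranked lower in old and among other classes 21 of 40, so the count did not rest on promoters. The share ranked lower was 52.0% to 80.0% under each other list length, ranking and left-out library tried, against 24.0% to 37.5% of all common regions. Without young replicate 1, 7 of 68 ranked higher (10.3%, against 28.0%).

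The members show the size of the shift. The Egr1 promoter, of a zinc-finger factor induced by growth factors and shear, ranked 6378 and 5603 in old and 3203, 3118 and 3103 in young. The promoter of Dusp1, the phosphatase that ends MAP kinase signalling, ranked 2283 and 1951 in old and 701, 1402 and 1009 in young. All old ranks of these genes were behind all young ranks. The Nr4a1 promoter, of an orphan nuclear receptor, ranked 1764 and 1920 in old and 737, 897 and 1037 in young. The exon region at the start of Jund ranked 267 and 401 in old and 144, 88 and 91 in young. Fos itself, in the exon region at its start, ranked 1876 and 2448 in old and 1156, 1268 and 1525 in young. Regions at the start of Junb and Atf3 showed no such order, with Junb at 1979 and 1508 in old and 1432, 1421 and 1925 in young.

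Side regions of the immediate early genes were as many young-side as old-side. There were 10 of each, 8.20% of the 122 regions, against 5.97% old-side and 2.18% young-side over all regions. Of the 10 young-side regions 5 lay at a TTS, 4 were intergenic and 1 was exonic, and all 10 had a peak in both whole old lists. The young-side region at the end of Fos ranked 10324, 12097 and 16023 in young and 25268 and 28093 in the whole old lists. The rest of the old lists is long, and over all young-side regions 70.4% and 61.6% had a peak there.

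KLF factors and shear stress genes ranked lower in old more often than higher, as did all common regions to a smaller extent. Of 45 common regions 20 ranked lower in old (44.4%, against 30.0% of all) and 6 higher (13.3%, against 20.8%), with a median shift of −0.24. The number higher was 12 without old replicate 1, 11 without old replicate 2, 13 of 56 without young replicate 1 and 12 without young replicate 3, and the shares of 26.7%, 24.4%, 23.2% and 26.7% then lay near the 25.8% to 28.0% of all common regions. The promoters of Klf4 itself, Klf3, Klf7 and Klf13 were among those lower in old. Klf4 is the deleted gene, its promoter had a shift of −1.59, and the part of the gene that the deletion removes is not given in the sources used here. The Klf7 promoter ranked 289 and 485 in old and 111, 156 and 40 in young. The Klf2 region near its TSS, of the closest partner of Klf4 in endothelium, ranked 137 and 134 in old and 63, 61 and 69 in young. Of 8 common regions nearest Klf4, 3 ranked lower in old and 2 higher, among the latter a region 72583 bp upstream, which ranked 1179 and 1251 in old and 2397, 3410 and 3527 in young. Higher in old were also the promoters of Map3k3, the kinase upstream of MEK5, at 48 and 29 against 150, 133 and 158, and of Nos3, endothelial nitric oxide synthase, at 3743 and 3238 against 4653, 6395 and 5993.

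**Figure D4:**
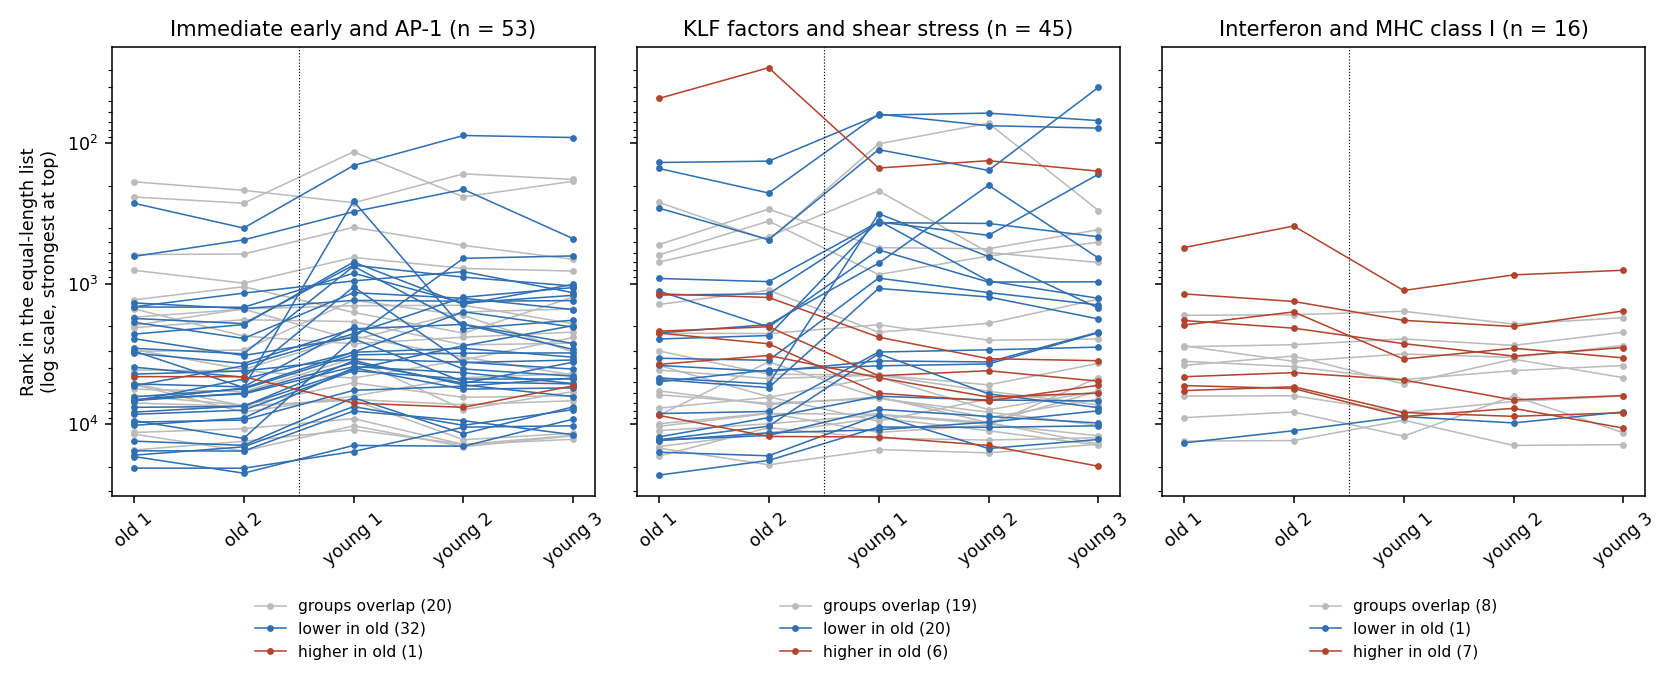
Rank of each common region in the equal-length list of each library (vertical log axis, strongest at top; lines join the same region across the 2 old and 3 young libraries) for immediate early and AP-1, KLF and shear stress, and interferon and MHC class I genes. Blue lines rank lower in old (32, 20 and 1 regions), red lines higher in old (1, 6 and 7) and grey lines overlap between ages.

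Wnt genes had the highest old-side share of the 24 gene lists. Of their 124 regions 29 were old-side (23.4%, against 5.97% of all regions) and 1 was young-side. The old-side regions lay nearest to 16 of 20 genes, with 5 at Lef1, the TCF family factor that binds beta-catenin, 4 at Nkd1 and 3 at Apcdd1, both inhibitors that Wnt signalling induces, and 3 at Sox17, a SOX factor of arterial and barrier endothelium. Fzd6 and Tcf7 had 2 each. The receptors and coreceptors Fzd4, Lrp5, Lrp6, Tspan12 and Reck had 1 each, as did Tcf7l1, Tcf7l2, Notum, Znrf3 and Dkk2. All were intergenic (18) or intronic (11). Of the 29, 20 were in both old WT Cre lists and none was in a young WT Cre list. Over all 2826 old-side regions, 1827 were in both old WT Cre lists and 35 in any young one. A Lef1 region at chr3:131064427-131064833 ranked 9792 and 12168 in old.

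The Wnt count depended on how far down the lists it was taken. The old-side share was 22.1% when peaks were ranked by fold and 25.9% to 30.0% without any 1 library (8.12% to 10.5% of all regions), but 3 of 36 regions among the 10000 strongest peaks (8.33%, against 4.44% of all regions) and 1 of 17 among the 5000 strongest. Common Wnt regions showed little order, with 7 higher and 11 lower in old among 31 and a median shift of −0.14.

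Common regions of endothelial genes ranked higher in old more often than lower, a direction that turned when peaks were ranked by fold. Of 66 common regions of the 25 endothelial markers, 27 ranked higher in old (40.9%, against 20.8% of all) and 15 lower (22.7%, against 30.0%). Of their 223 regions 27 were old-side (12.1%, against 5.97% of all regions) and 10 young-side (4.48%, against 2.18%). Both sides were above their shares over all regions, which regions of 1 library lower. Away from promoters 23 of 51 ranked higher and 9 lower, and at promoters 4 of 15 higher and 6 lower. A region 25868 bp upstream of Flt1, the VEGF receptor 1 gene, ranked 679 and 380 in old and 1998, 3124 and 2035 in young, whereas the Flt1 promoter ranked 2277 and 2208 in old and 1181, 1727 and 1477 in young. Regions of 1 gene thus moved both ways. The region over the start of Cdh5, the Cre driver's gene, ranked 3251 and 2765 in old and 4493, 2776 and 4431 in young, with overlapping groups, and in young replicate 3 its peak was not in the promoter-TSS class. All 4 common regions of the SOXF factor gene Sox18 ranked higher in old, a gene picked out after its values were seen. Ranked by fold over background instead of −log10 p, there were 6 higher (10.2%) and 35 lower in old (59.3%) among 59. All common regions then had 17.2% higher and 37.1% lower. Without young replicate 1 the counts were 45 and 18 among 94.

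Endothelial transcription factor genes share Sox18 and other genes with the markers. Lef1 and Sox17, with 5 and 3 old-side regions, are also in the Wnt list. The factor genes had 25 old-side (11.1%, against 5.97% of all regions) and 10 young-side regions (4.44%, against 2.18%) among 225. Of their 61 common regions 20 ranked higher in old (32.8%, against 20.8% of all) and 12 lower (19.7%, against 30.0%). By fold 12 of 53 ranked higher (22.6%, against 17.2% of all) and 29 lower (54.7%, against 37.1%). Barrier junction genes had 11 old-side (11.2%) and 2 young-side regions (2.04%) among 98, and 9 higher against 10 lower among 28 common regions. Barrier transport genes had 7 old-side (7.29%) and 5 young-side regions (5.21%) among 96, and 8 higher against 7 lower among 24. Notch and arteriovenous genes had 9 higher and 11 lower among 33 common regions, and angiogenic receptor genes 19 (33.9%) and 17 (30.4%) among 56. By fold each of these 4 lists had fewer regions higher than lower in old, with 3 and 12 for junction genes, 3 and 12 for transport genes, 4 and 13 for Notch genes and 8 and 23 for angiogenic receptor genes.

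Interferon and MHC class I genes had few common regions, which ranked higher in old more often than lower, though less clearly by fold. Of 16 common regions 7 ranked higher in old (43.8%, against 20.8% of all) and 1 lower (6.25%, against 30.0%), with a median shift of 0.25. The Stat2 promoter, of the factor that carries type I interferon signals, ranked 553 and 388 in old and 1116, 864 and 801 in young. The promoter of the antiviral tether gene Bst2 ranked 5759 and 5404 in old and 8243, 8774 and 8270 in young, and that of the class I gene H2-K1 1824 and 2069 in old and 2666, 3270 and 2840 in young. All old ranks were ahead of all young ranks in these 3. By fold the counts were 6 higher (37.5%, against 17.2% of all) and 4 lower (25.0%, against 37.1%). Without young replicate 1 they were 15 and 1 among 26. Old-side regions numbered 2 of 40, a share near the 5.97% of all regions, and there was no young-side region.

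The remaining lists are to be read against the 30.0% lower and 20.8% higher of all common regions. TGF-beta and BMP genes had 21 of 43 common regions lower in old (48.8%) and 6 higher (13.95%). By fold 28 of 35 were lower (80.0%, against 37.1% of all common regions) and 0 higher. Among the 5000 strongest peaks 2 of 11 were lower (18.2%, against 24.0%) and 3 higher. An intergenic region 9431 bp upstream of Id1, a target of BMP signalling, ranked 18992 and 20544 in old and 4072, 8928 and 6619 in young, while the Id1 promoter overlapped between ages. Glucocorticoid and clock genes had 15 of 32 lower (46.9%) and 7 higher (21.9%). Among them the Fkbp5 promoter, of a cochaperone of the glucocorticoid receptor, ranked higher in old at 1188 and 1191 against 4015, 2218 and 2153, and a region 4020 bp upstream of the clock gene Per1 lower at 187 and 146 against 53, 56 and 126. Leukocyte adhesion and NF-kB genes had 9 of 20 lower and 4 higher. Cell cycle arrest and senescence genes had 7 of 27 lower and 4 higher, stress and unfolded protein response genes 4 of 22 in each direction, and housekeeping genes 8 of 21 lower and 2 higher. Matrix and protease genes had 12 of 30 higher and 9 lower. By fold they had 6 higher (22.2%) and 12 lower (44.4%) among 27, where all common regions had 17.2% higher and 37.1% lower.

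**Figure D5:**
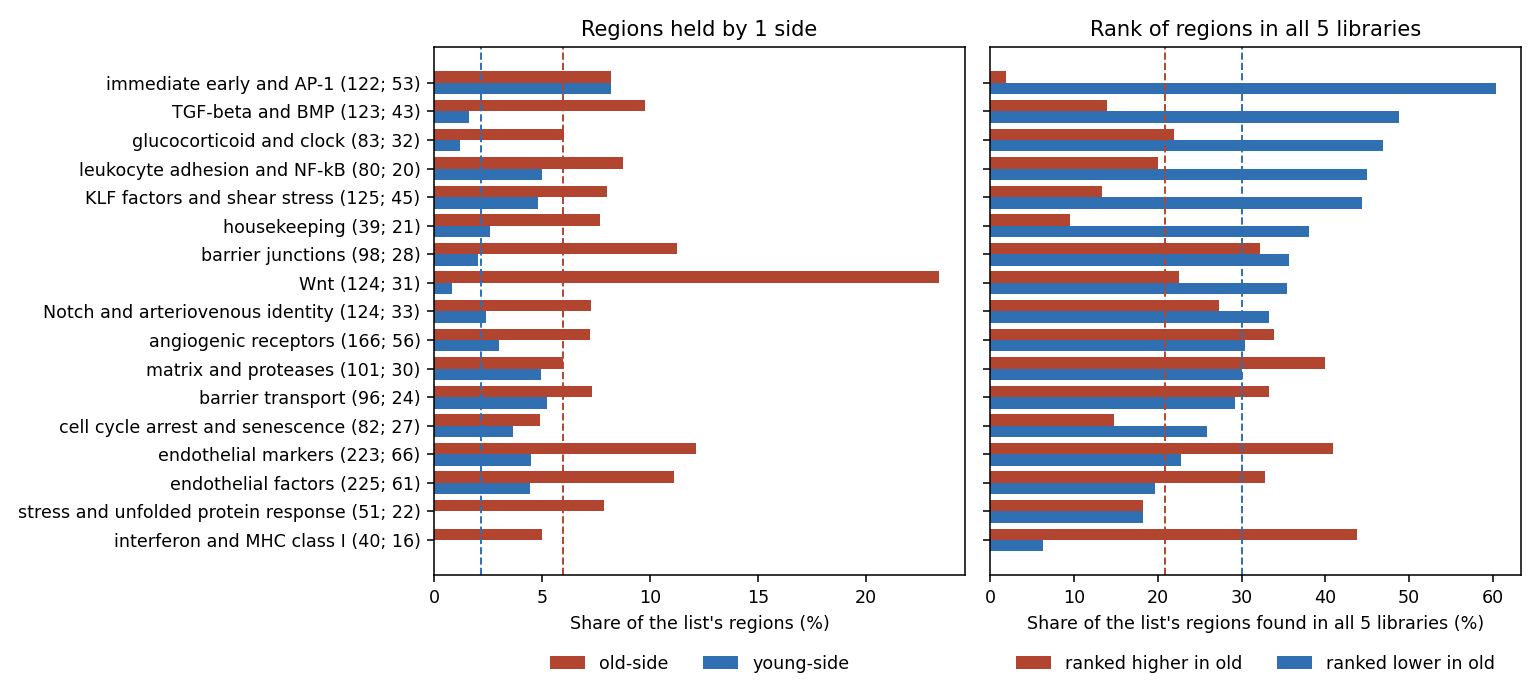
For each gene list, the share of its regions that were old-side or young-side (left, % of all its regions) and the share of its common regions that ranked higher or lower in old (right, %), with the 2 numbers of regions in brackets and dashed lines for the shares over all regions (5.97% and 2.18% on the left, 20.8% and 30.0% on the right). Wnt genes have the longest old-side bar (23.4%), and immediate early and AP-1 genes the longest bar for ranking lower in old (60.4%).

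The number of promoters held by 1 age alone depended on how a promoter peak was defined. By the authors' promoter-TSS class, 605 of 10188 genes (5.94%) had a promoter peak in both old and no young deposited lists, and 281 (2.76%) in at least 2 young and no old lists. At equal length these were 279 (2.99%) and 366 (3.92%) of 9329 genes. Because one peak takes one class, the count was repeated with any peak from 1 kb before to 100 bp after a TSS, a definition chosen after the data were seen. In the deposited lists it gave 1027 old and 70 young calls among 16471 genes, of which 364 and 11 were called by both definitions. At equal length it gave 318 and 290 among 14774, of which 112 and 95 were shared. By the promoter-TSS class, leaving out 1 library gave 703 to 1105 old and 121 to 494 young calls as deposited, with the most without old replicate 2 and the fewest without young replicate 1 (old) or 2 (young). At equal length the ranges were 353 to 557, with the most without young replicate 3, and 156 to 598, with the most without old replicate 2.

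Among genes of the lists, Vwf, von Willebrand factor of endothelium, the interferon-induced modifier gene Isg15 and Bmp6, a BMP ligand, were old-side promoters under both definitions, as deposited and at equal length. Myh11 and Tagln of smooth muscle, Tubb3 of neurons, Ackr1 of venules and the VEGF family ligand gene Pgf were so in the deposited lists. Tal1, a factor of blood and endothelium, and Igfbp3, which binds insulin-like growth factors, were young-side at equal length under both. Young-side calls of the deposited lists by class alone, among them Atf3, Fosl1, B2m, Bmpr2, Tcf7 and Pdgfra, did not hold under the TSS definition. The old-side calls of Icam2, Tap2, Insr and Gja1 by class did not hold under it either.

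Distal regions of the 2 sides differed in motif letters, AP-1 being more frequent in young-side and SOX in old-side regions. At least 1 kb from a TSS, the AP-1 letters TGANTCA were within 300 bases around the centre in 22.5% of 796 young-side and 11.2% of 2661 old-side regions, against 13.2% of all 36598. Among the 245 distal young-side regions absent from both whole old lists the share was 13.5%, close to that of all regions. Among common distal regions they were in 24.1% of 1126 lower in old and in 12.2% of 1145 higher in old, against 17.7% of all 4137. The share in regions lower in old was 23.5% to 25.1% without any 1 library, and 19.6% against 16.3% when ranked by fold. The young-side share was 13.8% without young replicate 3 and 31.8% without young replicate 1. The SOX letters CCATTGTT ran the other way, in 4.81% of old-side and 0.628% of young-side regions, against 2.11% of all. In common distal regions these letters were in 5.24% of those higher and 1.42% of those lower in old, against 3.12% of all 4137. The ETS letters ACAGGAAG were in 10.2% of old-side, 5.78% of young-side and 6.42% of all distal regions. They were also in 9.19% of the distal regions common to all 5 libraries, near the old-side share. Of the common distal regions, 10.7% of those higher and 8.26% of those lower in old held them.

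Base composition differed along with these shares. At least 1 kb from a TSS, the median GC content was 48.0% in old-side, 52.3% in young-side, 52.7% in common and 49.7% in all regions. With promoters included the medians were 48.3%, 55.0%, 62.7% and 51.7%. The GC-box letters GGGGCGGGG were in 10.4% of distal regions lower in old and 3.84% of those higher, against 7.25% of all common distal regions. The part of GC content in the motif shares was not tested.

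Whole lists differed less in motif content. Of 18 motifs, 16 had non-overlapping ages at equal length, and no adjusted p by the exact permutation test was below 0.36. SOX letters were in 2.36% and 2.38% of old peaks and 1.15%, 1.65% and 1.60% of young peaks, a difference of 0.91 percentage points (p = 0.1, the smallest possible, by the exact permutation test). ETS letters were in 7.18% and 7.31% of old and 4.16%, 5.81% and 6.50% of young peaks. AP-1 letters overlapped between ages, at 11.6% and 11.4% in old and 8.74%, 11.7% and 13.3% in young, and the KLF letters CCACACCC were at 3.50% and 3.51% in old and 3.69%, 3.65% and 3.67% in young.

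The WT Cre lists differed by age in the same direction. The WT Cre lists held 43893 and 32555 peaks in old and 6157 and 9598 in young, and the promoter-TSS share was 18.8% and 25.2% in old and 55.4% and 47.0% in young. The old minus young difference in peak number was 16336 in EC-K4KO and 30347 in WT Cre (exact permutation of age labels within genotype, 60 arrangements, p = 0.47). For promoter share the differences were −6.63 and −29.2 percentage points (p = 0.33 by the same exact test).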

How the data were processed

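Omni-ATAC-seq was made by the study from flow-sorted brain endothelial cells, 1 library per sample. The authors trimmed reads with TrimGalore, aligned them to mm10 with Bowtie2, filtered them with Picard and SAMtools, and called broad peaks with MACS2, separately for each library. The deposited peak lists give a display score, a fold over background, and −log10 p and −log10 q values, and the deposited annotation, in the form HOMER writes, gives class, distance and nearest gene. The authors' scores were not used. No read count or depth is given in the sources used here, so no count test and no interval could be made.

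Groups came from the labels (2 old and 3 young EC-K4KO). Lists were ranked by −log10 p, cut at 23848 peaks (ties by fold, then position; 1951 peaks of young replicate 2 were tied at the limit), and joined where peaks overlapped by at least 1 bp. Measures of each library were compared by two-sided exact permutation tests, with Benjamini-Hochberg adjustment over 12 list measures and over 18 motifs. Motif letters were searched on both strands in 300 bp windows of GRCm38, read with samtools 1.23.1, using Python 3.11.15, pandas 2.3.3, numpy 2.4.6 and scipy 1.17.1. The scripts were tested on simulated data. Genes were named where they met a rule: the 10 best mean ranks per side among regions in every library of that side and in no whole list of the other, the 5 largest rank shifts per direction, the 5 genes with the most regions per side, and genes of the lists with a call. Examples among common regions of the lists were chosen after their values were seen. The members, gene lists and motifs were chosen with earlier results of these data known. The study calls the libraries biological replicates but does not say which animals or pools stand behind each, and p-values measure only the spread between these samples. Alternatives were other list lengths, q limits, ranking by fold, left-out libraries, pairing by replicate number and other definitions of likeness and of promoter peaks.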

Additional observations from a re-analysis of the deposited data

How the results depend on the processing

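With only 2 old and 3 young libraries no comparison could pass 0.05, so only directions and sizes are compared. Leaving out 1 library at a time turned the direction of no list measure. The ranges were 13363 to 19310 for the difference in peak number, 0.99 to 3.62 percentage points for the promoter share at equal length and −8.45 to −4.30 for the distal share. Counts of regions and genes moved more. Old-side regions ranged from 10895 to 21076 as deposited and from 2933 to 4547 at equal length, and young-side regions from 83 to 552 and from 329 to 1335. Genes with an old-side promoter ranged from 703 to 1105 and from 353 to 557, and those with a young-side promoter from 121 to 494 and from 156 to 598. With 1 library fewer, a side needs fewer libraries to agree or to lack the peak. Without young replicate 1, which stood apart, the AP-1 difference was −0.979 and the E-box difference −0.0021 percentage points, both turned in sign, and over all left-out libraries they reached 1.29 and 0.698.

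Among the 10000 strongest peaks, the difference old minus young was −0.31 percentage points in promoter share, 1.78 in intergenic share and 1.47 in distal share, and −26.7 in genes with a promoter-TSS peak. Among the 5000 strongest these were −1.37, 2.59, 1.88 and −63.5, and the X share differed by −0.41. All of these turned in sign and the cause was not tested. Old-side regions then numbered 594 and 393, young-side regions 680 at 5000, and genes with an old-side promoter 141 at both lengths. The promoter share of old-side regions was 10.1% and 25.7% and that of young-side regions 38.3% and 54.6%. With q under 0.05, young-side regions as deposited numbered 112, and with q under 0.01 they numbered 28 and the difference in median width turned to −14.2 bp. If all 3 young libraries had to hold the peak, 15 young-side regions were left as deposited and 162 at equal length. With the overlap coefficient in place of the Jaccard index, likeness within ages was below that between ages, by −0.0766 as deposited and −0.0492 at equal length. With promoter peaks defined by distance to a TSS, chosen after seeing the data, 1027 old-side and 70 young-side genes were called as deposited.

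The ranks gave no sign that replicate numbers pair the samples, as deviations of same-numbered libraries from their age mean correlated at 0.001 and −0.008. The deviations of the 2 old libraries mirror each other by construction, so these values cannot settle whether samples were paired. With a replicate block on numbers 1 and 2, the difference was 17474 peaks, 10.1 Mb covered, 46.5 bp in width, −6.88 percentage points in promoter share as deposited and 3.62 at equal length, 3.92 in intron share, −6.45 in intergenic share, −8.45 in distal share, and 1726 and 837 genes (exact sign-flip p = 0.5, the smallest possible). The block changed no direction. Shares of the gene lists and of motifs in distal regions under other list lengths, ranking and left-out libraries were also added after seeing the data.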

Other observations

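The young-side region over coding exons of Ctcf stood out among the named regions. It had a peak in all 5 young libraries of both genotypes and in none of the 4 old libraries. In young WT Cre replicate 2 it was the strongest peak of the list, with a −log10 p of 350 and a fold of 5.66. The region at chr8:105663830-105665004 reaches over coding exon 3 (105663754-105664543) and exon 4 (105664856-105665026) of Ctcf and the intron between them. The Ctcf promoter had a peak in all 5 EC-K4KO libraries, with ranks 12731 and 10928 in old and 1439, 1157 and 1918 in young.

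Repeats also differed between the sides. At equal length, 28.3% of the 276 young-side regions absent from both whole old lists had at least 50% of their 300 bp window in repeat-masked sequence. The share was 10.1% in all young-side, 2.65% in old-side and 11.4% in all regions. Read placement in such windows can be uncertain.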
